A study of Mus musculus with 4 samples.

Results

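The stefins and cystatins are small proteins that block cysteine proteases of the papain type, chiefly the lysosomal cathepsins. The 9 genes described here are 5 copies of stefin A (Stfa1, Stfa2, Stfa3, Stfa2l1 and BC100530), stefin B (Cstb), cystatin C (Cst3), cystatin E/M (Cst6) and cystatin F (Cst7). They were taken by gene symbol from a table of 24358 genes, all 9 symbols were present, and each had 1 transcript. Expression was measured by sequencing of mRNA from 2 cell populations sorted from the dermis of wound beds of 7-week-old male C57/Bl6 mice on day 5. One population was CD301b macrophages, which carry the lectin CD301b on their surface, and the other was immune cells negative for the macrophage surface protein F4/80. Each population had 2 libraries, which the labels do not tie to separate animals, and no group of macrophages without CD301b was included.

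The authors deposited 1 value per transcript and population in FPKM (fragments mapped to a transcript, divided by its length and by the size of the library), so no error can be given for a level, the spread between the 2 libraries is unknown, and the depth of each library is unknown. The sort gene Adgre1, which encodes F4/80, followed its label (150.8 FPKM in F4/80-negative cells versus 557 FPKM in CD301b macrophages), whereas Mgl2, which encodes CD301b, went against it (103 and 49.2 FPKM). All 8 macrophage markers were higher in CD301b macrophages. Their summed level was 2415 FPKM in F4/80-negative cells versus 6944 FPKM in CD301b macrophages, so transcripts of these markers were plentiful in both populations. Of 9 dendritic cell markers 8 were lower in CD301b macrophages, and of 6 mast cell markers 5 were lower. The 5 fibroblast markers were high in both populations, with summed levels of 6081 FPKM in F4/80-negative cells versus 4130 FPKM in CD301b macrophages. All 5 were lower by value in CD301b macrophages and none passed the threshold. The part of fibroblast RNA in the levels given below was not tested. In such sorted mixtures, fewer cells of a type and less RNA per cell cannot be told apart.

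Stefins stay inside the cell, in the cytosol and nucleus, while cystatins carry a signal peptide and are secreted or sent to endosomes and lysosomes. Both kinds wedge into the active site of a cathepsin with a conserved hairpin loop whose motif is written Q-x-V-x-G. Stefin A is known from epidermis and neutrophils, and mice carry it as a cluster of tandem gene copies. Cystatin C is the broadly secreted form and is abundant in macrophages and dendritic cells, and cystatin F is a form of blood cells that acts inside their lysosomal compartment.

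The sequence of the loop is given because it is the part that the 9 genes share, and because the stretch around it shows how alike the stefin A copies are. Each line is 63 bases of coding sequence from the GENCODE M21 transcript (build GRCm38) matched to the RefSeq accession of the table, read 5′ to 3′, with the 15 bases that encode Q-x-V-x-G in capitals. All 9 members had the motif.
Stfa1: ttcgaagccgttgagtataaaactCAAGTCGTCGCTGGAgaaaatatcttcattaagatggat
BC100530: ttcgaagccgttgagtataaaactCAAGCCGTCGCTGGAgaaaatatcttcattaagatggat
Stfa2: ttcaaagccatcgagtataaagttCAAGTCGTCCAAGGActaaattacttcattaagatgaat
Stfa2l1: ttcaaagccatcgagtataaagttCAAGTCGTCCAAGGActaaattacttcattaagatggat
Stfa3: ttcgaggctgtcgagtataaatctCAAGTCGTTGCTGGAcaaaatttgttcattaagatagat
Cstb: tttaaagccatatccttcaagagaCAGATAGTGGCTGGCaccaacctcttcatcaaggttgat
Cst3: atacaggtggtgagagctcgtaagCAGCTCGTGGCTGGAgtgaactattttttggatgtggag
Cst6: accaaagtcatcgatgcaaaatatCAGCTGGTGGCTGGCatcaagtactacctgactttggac
Cst7: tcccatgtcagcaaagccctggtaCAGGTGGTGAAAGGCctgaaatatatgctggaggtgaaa

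Over these 63 bases Stfa1 and BC100530 differed at 1 position, and so did Stfa2 and Stfa2l1, whereas Stfa2 and Stfa3 differed at 15. Over the whole coding sequence, Stfa1 and BC100530 were 98.0% identical (6 mismatches in 294 aligned positions) and Stfa2 and Stfa2l1 were 96.5% identical (11 mismatches in 312). The 10 pairs among the 5 stefin A members ranged from 73.4% to 98.0%. Against Cstb the stefin A members were 52.2% to 58.7% identical, and the 6 pairs among Cstb, Cst3, Cst6 and Cst7 were 41.7% to 53.0% identical.

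Of the 9 members, 4 were lower in CD301b macrophages than in F4/80-negative cells, none was higher, and the other 5 did not pass the threshold. The 4 were Stfa3, BC100530, Stfa1 and Cst7, with levels about 3-fold apart. The threshold was an adjusted p of 0.05, obtained by Benjamini-Hochberg adjustment of Cuffdiff's p over every tested transcript of the authors' deposited table. By the same rule 6.20% of the 13039 genes tested were lower and 11.0% were higher. At an unadjusted p under 0.05 the Cuffdiff counts for the members were the same, 4 lower and 0 higher. The median log2 fold of the 9 members was -0.62, beside 0.05 for all genes tested; log2 folds are of FPKM + 1, which understates the change of low genes.

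**Figure D1:**
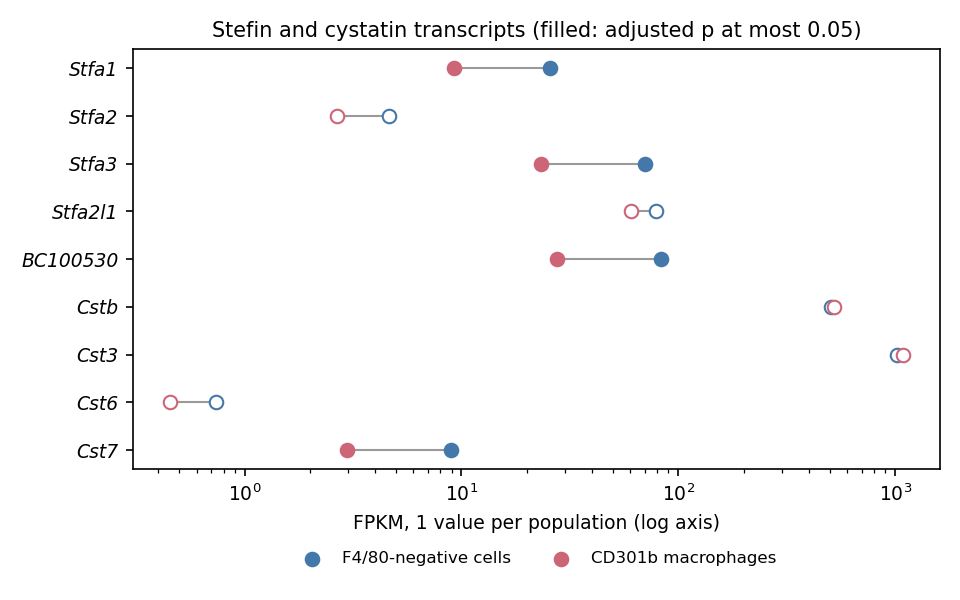
Level of each stefin and cystatin gene in FPKM on a log axis, 1 point per population and no error bar because 1 value per population was deposited. Filled points are genes with an adjusted p of at most 0.05. Stfa1, Stfa3, BC100530 and Cst7 lay lower in CD301b macrophages, and the points of Cst3 and Cstb nearly coincide.

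Cst3 and Cstb held most of the family's transcript in both populations, at levels that lay close together. Cst3, cystatin C, was 1020 FPKM in F4/80-negative cells versus 1087 FPKM in CD301b macrophages, which placed it 86th and 77th among 24358 genes. Its adjusted p was 0.791 by Cuffdiff in the authors' deposited table. Cstb, stefin B, was 508 FPKM in F4/80-negative cells versus 523 FPKM in CD301b macrophages, with an adjusted p of 0.905 by Cuffdiff in the authors' deposited table. Cst3 was 2.01-fold above Cstb in F4/80-negative cells and 2.08-fold above it in CD301b macrophages. Together the pair made up 84.9% of the summed FPKM of the 9 members in F4/80-negative cells and 92.7% in CD301b macrophages. The log2 fold of Cst3 was 0.09 and that of Cstb was 0.04, and the latter was -0.05 after scaling to the median gene of each population. With no value per library, no interval of these small differences can be given.

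Stefin A transcripts were lower in CD301b macrophages in 3 of 5 member copies, and the other 2 copies were lower by value without passing the threshold. BC100530 (NCBI gene 100034684, now Cstdc5 in RefSeq, chromosome 16, 36359382 to 36367570, GRCm38) was 83.2 FPKM in F4/80-negative cells versus 27.5 FPKM in CD301b macrophages, a 3.03-fold difference. Stfa3 (NCBI gene 20863, chromosome 16, 36450537 to 36455392) was 70.1 FPKM and 23.2 FPKM in the same order, also 3.03-fold. Stfa1 (NCBI gene 20861, chromosome 16, 36277148 to 36285371) was 25.6 FPKM and 9.24 FPKM, a 2.77-fold difference. These 3 copies had an adjusted p of 0.000999 by Cuffdiff, the lowest that the p-values of the authors' deposited table allow.

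Stfa2l1 was the highest stefin A member in CD301b macrophages, with 60.8 FPKM there and 79.0 FPKM in F4/80-negative cells (adjusted p = 0.307 by Cuffdiff, from the authors' deposited table). Stfa2 was the lowest member copy, with 2.66 FPKM in CD301b macrophages and 4.64 FPKM in F4/80-negative cells (adjusted p = 0.271 by Cuffdiff, from the authors' deposited table). In F4/80-negative cells the order of the member copies was BC100530, Stfa2l1, Stfa3, Stfa1 and Stfa2, and in CD301b macrophages Stfa2l1 came first, followed by the rest in unchanged order. Without values per library, it cannot be said which neighbours in these orders differ beyond their spread. Whether the fold of Stfa2l1 differed from that of the 3 lower copies was not tested.

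The stefin A members lie in a cluster of 10 copies in the table, which spans 335 kb of chromosome 16 (36119946 to 36455392, GRCm38). The other 5 copies are Csta1, Gm5483 (now Cstdc4), Gm5416 (now Csta3), 2010005H15Rik (now Csta2) and BC117090 (now Cstdc6). Of the 9 copies tested, 5 were lower in CD301b macrophages, none was higher and 4 did not pass, and all 9 were lower by value. Over all 13039 genes tested, 6.20% were called lower and 44.7% were lower by value. Gm5483 was 85.7 FPKM in F4/80-negative cells versus 47.8 FPKM in CD301b macrophages (1.79-fold, adjusted p = 0.00974 by Cuffdiff, from the authors' deposited table). BC117090 was 4.58 FPKM and 1.29 FPKM in the same order (adjusted p = 0.0444 by Cuffdiff, from the authors' deposited table), a call that was lost at a threshold of 0.01. Gm5416 (8.74 and 3.90 FPKM) and 2010005H15Rik (5.16 and 2.30 FPKM) were not past the threshold, and Csta1, at 0.296 and 0.119 FPKM, was not tested by the authors.

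**Figure D2:**
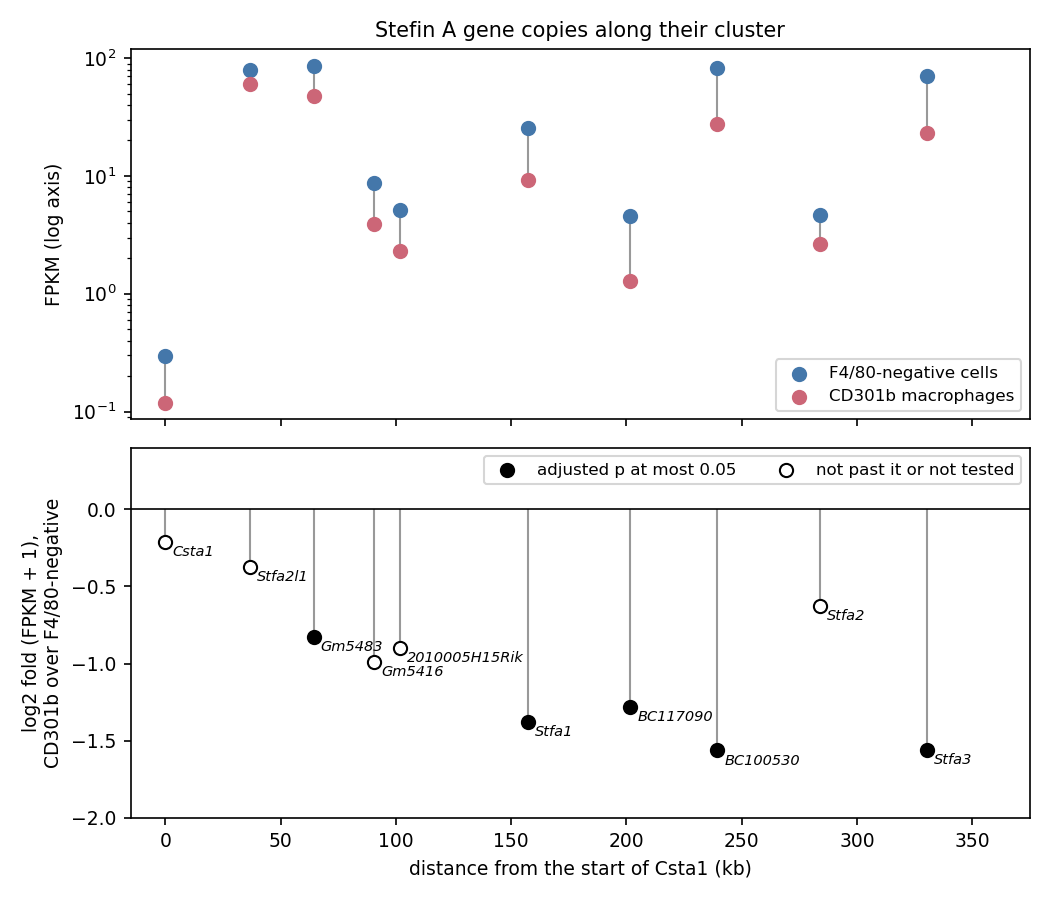
The 10 stefin A copies by the distance of their start from the start of Csta1 in kb. The upper panel shows FPKM in each population on a log axis and the lower panel the log2 fold of FPKM + 1 in CD301b macrophages over F4/80-negative cells, with filled points at an adjusted p of at most 0.05. All 10 points of the lower panel lie below 0, from -0.21 for Csta1 to -1.56 for BC100530.

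Reads of such copies cannot always be told apart, and no source used here states the counting settings. The share of 50-base words of a transcript that also occur in a transcript of another gene was therefore computed from the GENCODE M21 transcripts. No word of Stfa3, one of the 3 lower member copies, occurred in another gene. BC100530 shared 48.9% of its words, with Stfa1 as its closest partner (23.0%), and Stfa1 shared 26.9%. Stfa2l1 shared 24.6% and Stfa2 15.9%, mostly with each other. Among the other copies, Gm5483 shared 35.6% and 2010005H15Rik 22.0%, with each other, BC117090 shared 33.7% and Csta1 0.805%, while Gm5416 shared none. The levels of the 8 copies with shared words, and the calls among them, are uncertain for that reason, by an amount that these shares do not give. Only exact matches were counted. Stretches that differ at a few bases, also those of Stfa3 and Gm5416, were left out. With words of 100 bases the shares were 22.3% for BC100530, 5.60% for Stfa1, 0% for Stfa2l1 and Stfa2, 11.1% for Gm5483 and 13.5% for BC117090. Cstb, Cst3, Cst6 and Cst7 shared no 50-base word with any other gene.

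**Figure D3:**
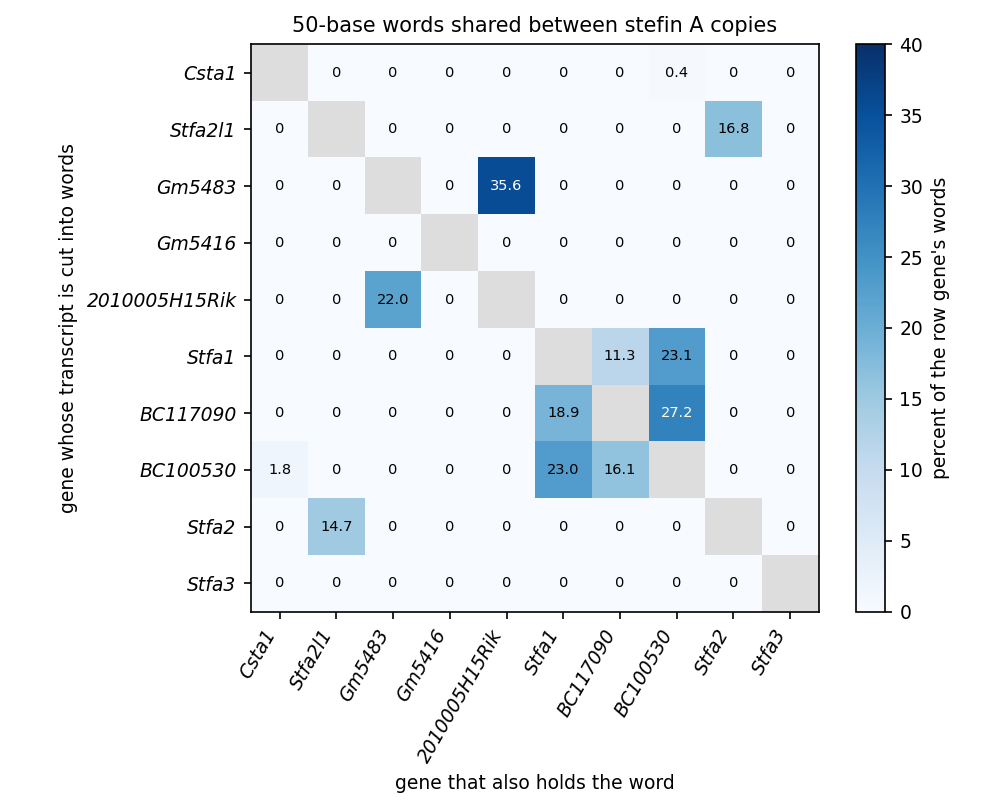
Percent of the 50-base words of the transcript in each row that also occur in a transcript of the gene in each column, for the 10 stefin A copies in their order along the cluster. The shared words fall into separate groups: Stfa1, BC117090 and BC100530, with a few words of Csta1; Stfa2 and Stfa2l1; and Gm5483 with 2010005H15Rik. Stfa3 and Gm5416 share none.

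A sum over all copies depends less on how reads were divided among them than the level of any one copy. Words shared with genes outside the 10 copies, such as Gm15845, leave the sum uncertain too. Summed over the 10 copies, stefin A was 367 FPKM in F4/80-negative cells versus 179 FPKM in CD301b macrophages, a 2.05-fold difference. The 5 member copies alone gave 262 FPKM and 123 FPKM, which was 14.6% and 7.10% of the summed FPKM of all 9 stefin and cystatin members. The transcripts of the 5 stefin A members are short (412 bases in Stfa3 to 619 bases in BC100530), and those of the other copies range from 294 bases in Gm5416 to 2783 bases in Csta1. No source used here states how fragment length entered the FPKM.

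Markers of the cell types in which stefin A is known were read beside these values. Of 11 neutrophil markers with a row, 9 were tested, of which 3 were lower in CD301b macrophages, 1 was higher and 5 did not pass. Over all genes tested, 6.20% were lower and 11.0% higher. By value, 4 of the 9 neutrophil markers were lower and 5 higher. The 3 called lower were S100a8, S100a9 and Csf3r. The levels of Csf3r lay close together, at 71.3 FPKM in F4/80-negative cells versus 68.1 FPKM in CD301b macrophages. The summed level of the 11 markers was 3927 FPKM in F4/80-negative cells versus 2188 FPKM in CD301b macrophages, a ratio of 1.80. Almost all of it was S100a8 (1725 and 938 FPKM) and S100a9 (2025 and 1092 FPKM). The neutrophil receptor Cxcr2 was 25.7 and 27.3 FPKM, the granule gene Ngp was 0.464 and 2.78 FPKM and higher in CD301b macrophages, and Elane was listed at 0 in both. Of 11 keratinocyte markers tested 2 were lower in CD301b macrophages (Cdh1 and Perp) and none was higher, also by value, with a summed level of 253 FPKM in F4/80-negative cells versus 189 FPKM in CD301b macrophages. Krt14, a keratin of basal keratinocytes, was 78.1 and 61.7 FPKM, and Ivl was under 1 FPKM in both. The part of neutrophils or keratinocytes in the stefin A difference was not tested.

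Stretches before the gene starts are shown for the 5 stefin A members because 3 of them were lower together. The RefSeq promoter table (GRCm38.p6) held 7 of the 9 members, without Cstb and Cst6. Each line is the 150 bases before the start, 5′ to 3′ along the gene. Capitals mark the longest string that all 5 share and, in Stfa1 and BC100530, a match to the C/EBP motif.
Stfa1, chr16:36276998-36277147, plus strand: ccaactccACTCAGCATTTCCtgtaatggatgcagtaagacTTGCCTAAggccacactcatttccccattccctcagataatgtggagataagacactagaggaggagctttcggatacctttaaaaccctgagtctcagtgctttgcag
BC100530, chr16:36367571-36367720, minus strand: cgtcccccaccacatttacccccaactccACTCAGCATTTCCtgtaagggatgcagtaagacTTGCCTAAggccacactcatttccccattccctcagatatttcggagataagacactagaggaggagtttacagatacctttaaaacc
Stfa3, chr16:36455393-36455542, minus strand: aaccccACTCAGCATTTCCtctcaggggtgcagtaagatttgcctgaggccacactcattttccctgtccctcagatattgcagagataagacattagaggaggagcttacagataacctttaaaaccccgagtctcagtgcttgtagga
Stfa2, chr16:36408364-36408513, minus strand: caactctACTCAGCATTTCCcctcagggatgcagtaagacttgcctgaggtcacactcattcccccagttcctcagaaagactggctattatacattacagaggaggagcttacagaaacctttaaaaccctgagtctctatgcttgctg
Stfa2l1, chr16:36156661-36156810, plus strand: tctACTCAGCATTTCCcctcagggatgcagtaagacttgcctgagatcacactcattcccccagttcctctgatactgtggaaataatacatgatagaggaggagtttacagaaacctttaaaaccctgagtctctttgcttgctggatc

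The shared string, ACTCAGCATTTCC, was found in 6 of 32851 windows of this length (0.0183%), all 6 of them from the stefin A cluster (the 5 members and Csta1). It was picked from these 5 sequences, so its rarity elsewhere describes only how alike the copies are. Motifs searched on both strands were PU.1 (GAGGAAGT), C/EBP (TTGCNNAA), AP-1 (TGANTCA) and the TATA box (TATAAA), held by 1.63%, 5.46%, 4.24% and 7.57% of all windows. Of the 7 members with an entry, 2 held the C/EBP motif, as TTGCCTAA at position -109 in Stfa1 and -88 in BC100530, counted back from -1 at the base before the start. The letters at the matching place were TTGCCTGA in Stfa2 (-110), Stfa3 (-111) and Stfa2l1 (-114). No window of the 7 held the letters of the other 3 motifs. Of the 3 member copies that were lower in CD301b macrophages, Stfa1 and BC100530 thus held the motif and Stfa3 did not. Of the 2 other lower copies of the cluster, Gm5483 did not hold it and BC117090 had no entry.

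Of the 3 cystatins, Cst7 alone passed the threshold. Cystatin F (NCBI gene 13011, chromosome 2, 150570415 to 150578944, GRCm38) is made by natural killer cells, cytotoxic T cells, mast cells and dendritic cells and is known to restrain cathepsin C. Its level was 8.92 FPKM in F4/80-negative cells versus 2.97 FPKM in CD301b macrophages, a 3.0-fold difference (adjusted p = 0.000999 by Cuffdiff, from the authors' deposited table). Among cell types in which it is known, 8 of 9 dendritic cell markers were lower in CD301b macrophages and none was higher, with summed levels of 319 FPKM in F4/80-negative cells versus 69.5 FPKM in CD301b macrophages. Of 6 mast cell markers 5 were lower, with summed levels of 56.2 and 19.7 FPKM. Of 6 lymphocyte markers 2 were tested, of which 1 was lower: Klrd1, the CD94 receptor chain of natural killer cells, at 37.1 and 4.18 FPKM, while Cd3e (0.415 and 0.399 FPKM) and Ncr1 (0.313 and 0.406 FPKM) were under 1 FPKM in both. The part of these cells in the Cst7 difference was not tested.

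Cst6, cystatin E/M, an inhibitor of cathepsin L and legumain best known from the epidermis, was the only member under 1 FPKM in both populations. It was 0.734 FPKM in F4/80-negative cells versus 0.451 FPKM in CD301b macrophages (adjusted p = 0.215 by Cuffdiff, from the authors' deposited table). Its gene (NCBI gene 73720) lies on chromosome 19, 5344705 to 5349574.

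**Figure D4:**
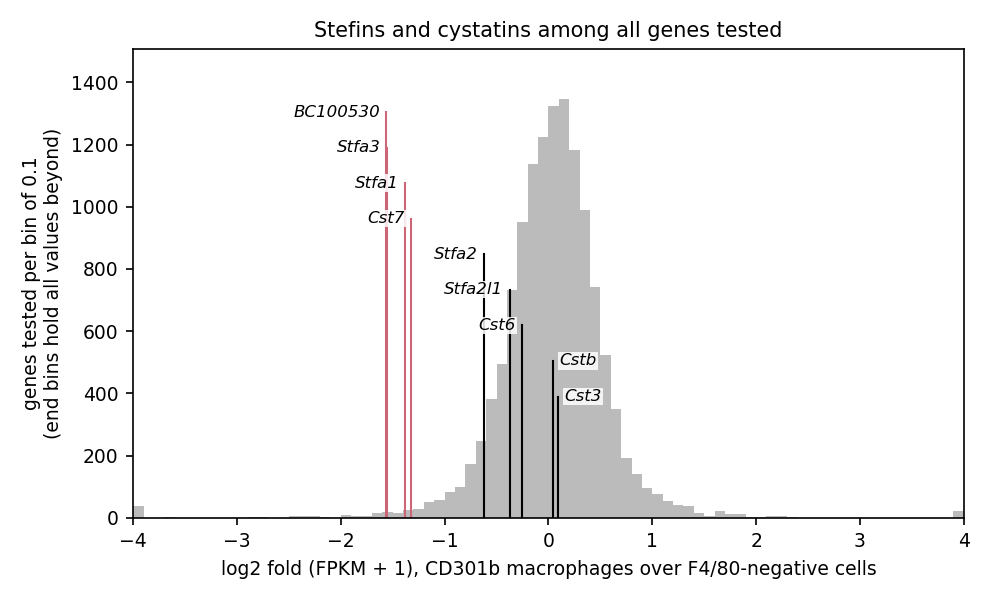
Number of genes per bin of log2 fold (FPKM + 1, CD301b macrophages over F4/80-negative cells) among the 13039 genes tested, with the 9 members as lines whose height has no meaning. Lines in red are members with an adjusted p of at most 0.05. BC100530, Stfa3, Stfa1 and Cst7 lie between -1.56 and -1.32, in the lower tail.

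Set among the 11928 tested genes at 1 FPKM or more in at least 1 population, 0.914% had a lower log2 fold than BC100530, 0.922% than Stfa3, 1.22% than Stfa1 and 1.30% than Cst7. For Stfa2 the share was 6.78% and for Stfa2l1 15.3%, while Cstb and Cst3 stood near the middle at 46.5% and 51.7%.

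Among the proteases that these inhibitors act on, more genes were higher than lower in CD301b macrophages. Of 10 cysteine cathepsins and legumain, 11 genes in all, 6 were higher in CD301b macrophages, 1 was lower and the other 4 did not pass, beside 11.0% higher and 6.20% lower among all genes tested. Their median log2 fold was 0.71. Cathepsin B (Ctsb) was 612 FPKM in F4/80-negative cells versus 1765 FPKM in CD301b macrophages. Legumain (Lgmn), an asparagine-specific lysosomal protease blocked by cystatins C, E/M and F, was 771 and 1791 FPKM (2.32-fold), and cathepsin C (Ctsc), the activator of granule serine proteases and a target of cystatin F, was 270 and 674 FPKM (2.50-fold). Cathepsins H (Ctsh, 319 and 521 FPKM), L (Ctsl, 357 and 643 FPKM) and O (Ctso, 9.46 and 17.8 FPKM) were also higher. The lower gene was Ctsk, the collagen-degrading cathepsin K of osteoclasts, at 443 and 79.8 FPKM. Cathepsin S (Ctss), which trims the invariant chain of MHC class II, had the highest level of the list (1871 and 2509 FPKM) and was not past the threshold (adjusted p = 0.209 by Cuffdiff, from the authors' deposited table). Ctsz (488 and 564 FPKM), Ctsf (6.71 and 7.19 FPKM) and Ctsw (0.959 and 0.783 FPKM) were not past it either.

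**Figure D5:**
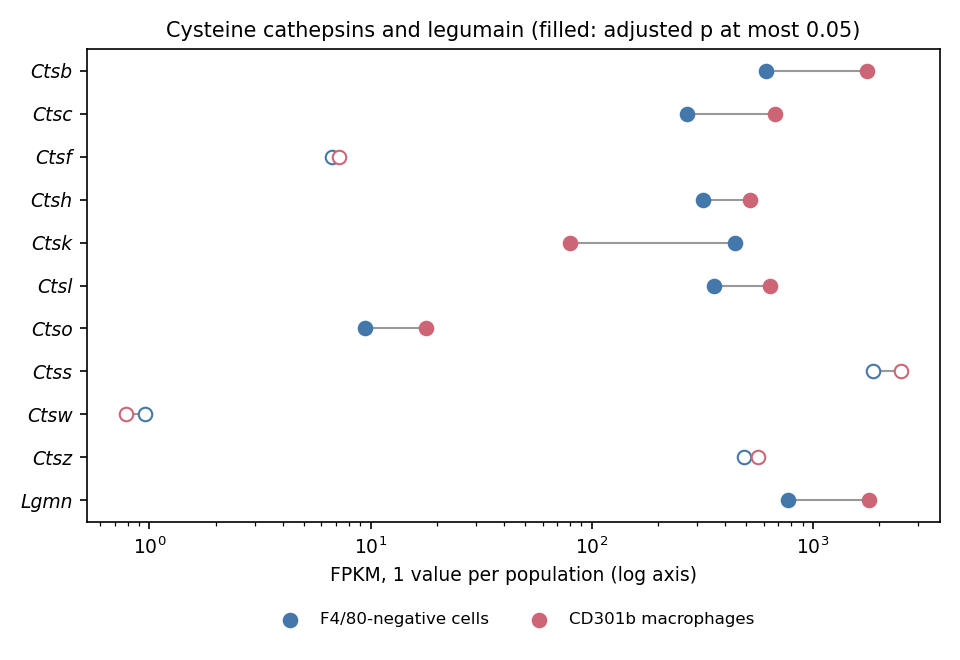
Level of each cysteine cathepsin and of legumain in FPKM on a log axis, 1 point per population and no error bar because 1 value per population was deposited. Filled points are genes with an adjusted p of at most 0.05. Among the filled genes, Ctsk is the only one that lies lower in CD301b macrophages, at 79.8 FPKM.

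Per length, transcripts of the 11 proteases summed to 5148 FPKM in F4/80-negative cells versus 8573 FPKM in CD301b macrophages, a 1.67-fold difference. The 9 inhibitors summed to 1800.5 FPKM and 1737 FPKM. The ratio of the protease sum to the inhibitor sum was 2.86 in F4/80-negative cells and 4.94 in CD301b macrophages, and that difference was not tested, for want of values per library. Cst7 and Ctsc, an inhibitor and its known target, differed in opposite directions, 3.0-fold lower and 2.50-fold higher in CD301b macrophages. Whether both transcripts came from the same cells was not tested.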

How the data were processed

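mRNA libraries (Illumina TruSeq, per the labels' protocols) of 2 sorted populations, 2 libraries each, were analysed by the authors with TopHat2 2.0.2 and Cuffdiff 2.0.2, per the submitters' processing notes. These name the build mm9, while the table's gene positions are those of GRCm38. The authors deposited 1 FPKM value per transcript and population and 1 unadjusted p-value per transcript for 34535 transcripts. No source used here states how libraries were combined. The deposited p-value has a lower limit of 5e-05. The 16921 transcripts with status OK were adjusted by Benjamini-Hochberg, which gave the deposited call in all 34535 transcripts. FPKM was summed by symbol (date-like symbols in 56 transcripts were restored by accession). A gene was called when at least 1 transcript passed 0.05, none passed in the other direction and the sum went the same way. No test on libraries was possible. Words, coding identity and promoter letters were computed from GENCODE M21 and RefSeq. Members and lists were chosen with earlier results of these data known. All members, all cathepsins and, of the other inhibitors, those at 1 FPKM or more were named. Tools were Python 3.11.15, pandas 2.3.3, numpy 2.4.6 and Biopython 1.88.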

Additional observations from a re-analysis of the deposited data

How the results depend on the processing

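Without values per library, no library could be left out and no interval could be given, so the calls rest on how Cuffdiff treated the 2 libraries of a population. No paired analysis was possible because the table holds 1 pooled value per population. Of the 9 members, 4 were again lower and 0 higher with genes at 1 FPKM or more and at a threshold of 0.01. The highest transcript alone and median scaling gave the same count. For the members these alternatives could not change the 4 lower calls. Each member has 1 transcript, and the 4 genes exceed 1 FPKM in both populations. Their adjusted p by Cuffdiff was 0.000999, the lowest possible here, and median scaling left the deposited p-values as they were. The 6 higher and 1 lower cathepsin genes were found under the same alternatives, where all genes but Ctss also have 1 transcript. Over all genes, the threshold of 0.01 gave 848 higher and 461 lower in place of 1432 and 808. A Bonferroni adjustment gave 0 calls in every list and direction, members, cathepsins and all genes included, because the lowest deposited p of 5e-05 cannot pass it over 16921 transcripts. Scaling each population to its median gene (ratio 1.06, log2 0.09) turned the log2 fold of Cstb from 0.04 to -0.047 and brought that of Cst3 from 0.09 to 0.003, neither past the threshold. A pseudocount of 0.1 FPKM changed the log2 fold of Cst6 from -0.26 to -0.60 and turned no direction. The summed stefin A ratio was 2.18 under median scaling, an alternative added after seeing the data, as were the 100-base words.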

Other observations

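Most other cysteine protease inhibitors outside the stefin A cluster were under 1 FPKM in both populations, and 3 were well above it. Of 24 further symbols listed, 20 were in the table and 5 of these are the remaining stefin A copies. Among the other 15, 8 were listed at 0 FPKM in both populations, including the reproductive-tract cystatins Cst8, Cst9, Cst11, Cst12 and Cst13, and 12 were under 1 FPKM in both, including the kininogens and fetuins of plasma. The 3 that were tested were Ctla2a and Ctla2b, which resemble the propeptide of cathepsin L, and Cast, the calpain inhibitor calpastatin. Ctla2b was 15.3 FPKM in F4/80-negative cells versus 33.7 FPKM in CD301b macrophages (2.21-fold, adjusted p = 0.000999 by Cuffdiff, from the authors' deposited table), while Ctla2a was 21.2 and 14.6 FPKM (adjusted p = 0.154 by Cuffdiff, from the authors' deposited table). Ctla2a and Ctla2b are close copies, and reads of stretches they share cannot be assigned with certainty. Cast was 28.3 and 31.7 FPKM and was counted as higher through 1 of its 8 transcripts (adjusted p = 0.0457 by Cuffdiff, from the authors' deposited table).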
